A study of Homo sapiens with 6 samples.

Results

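The 10 genes described have in common that they encode or restrain enzymes that cut the extracellular matrix: the matrix metalloproteinases MMP1, MMP3, MMP10, MMP13, MMP2 and MMP14, the tissue inhibitors of metalloproteinases TIMP1, TIMP2 and TIMP3, and ADAMTS1, a secreted metalloproteinase with thrombospondin repeats. They were picked by gene symbol, and the choice was made with their difference between the groups in view, so their levels and fold changes are a description. No p-value is given for them, and how many were called is stated only as a count beside that of all genes. They are 10 of the 16571 genes in the count table. A2780 is an established human ovarian cancer cell line, labelled serous, and all 6 libraries came from cells given lentivirus. In 3 libraries the virus carried pGIPZ-NC, a control short hairpin vector, and in 3 it carried a hairpin against USP39 (shUSP39), a protein of the spliceosome. The comparison asks what changes when USP39 is knocked down. The series describes the 3 libraries of a group as biological replicates, all of them from a single line, and the labels do not say which hairpin sequence was used.

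Matrix metalloproteinases are zinc enzymes made as inactive precursors and switched on outside the cell when their propeptide is cut. Collagenases open the triple helix of fibrillar collagen, stromelysins cut proteoglycans and activate other precursors, gelatinases cut denatured and basement membrane collagen, and membrane-type enzymes work at the cell surface. The TIMPs bind the active site of these enzymes, and in ovarian cancer the balance of both sides is studied for its part in spread across the peritoneum.

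The total count was between 28294819 and 32939264 per library. The knocked-down gene was not analysed here, which leaves the group labels without a check on the targeted gene. A count was found for 12662 to 12819 genes in the 3 pGIPZ-NC libraries and shUSP39 replicate 1, but for 15446 and 14890 in shUSP39 replicates 2 and 3. In all, 1246 genes had counts in those 2 libraries and in no other, and 0 of the 10 members were among them. The list of markers for the labelled cell type had 9 genes in the table, and 4 of them had 1 CPM or more in a library. Among these, KRT18 had 711, 676 and 676 counts in pGIPZ-NC and 1017, 932 and 1075 in shUSP39. KRT19 had 821, 836 and 616 counts in pGIPZ-NC and 62, 68 and 51 in shUSP39. KRT8 and MUC16 are given below. PAX8, EPCAM, CDH1 and MSLN had at most 6 counts in any library. Levels are given as counts scaled to the same library size (CPM), as the mean ± SD of 3 libraries. The log2 fold change, shUSP39 over pGIPZ-NC, and its SE come from edgeR's quasi-likelihood fit over the 10695 genes that passed a filter on low counts. A gene was called where its Benjamini-Hochberg adjusted p was under 0.05 and its change was over 2-fold, which held for 6.81% of the genes tested (4.53% higher and 2.28% lower in shUSP39).

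**Figure D1:**
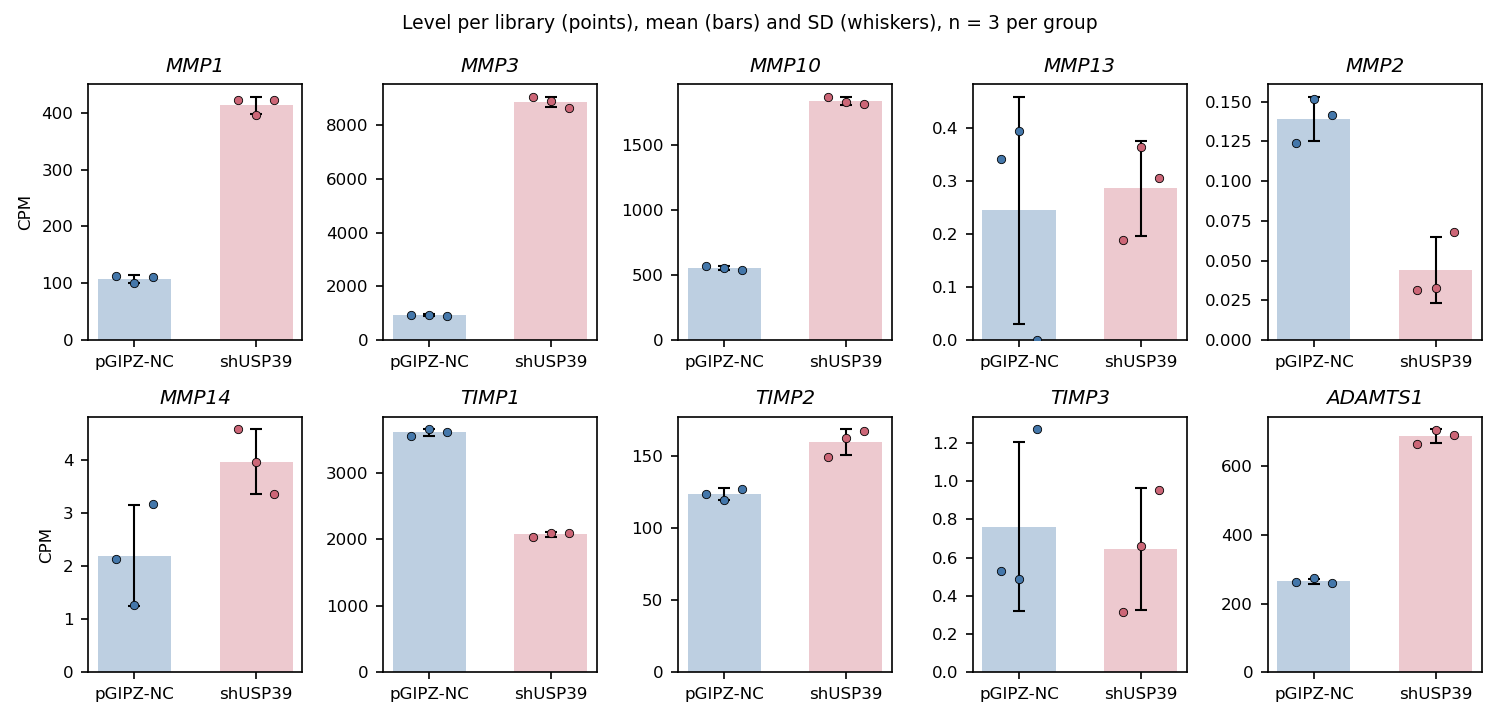
Level of each of the 10 genes in CPM (y axis, a separate scale from 0 for each gene) in the pGIPZ-NC and shUSP39 libraries; points are libraries, bars the mean of 3 and whiskers the SD. MMP1, MMP3, MMP10 and ADAMTS1 stood far above the control libraries, TIMP1 stood below them, and MMP13 and TIMP3 overlapped.

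MMP3 (stromelysin-1), MMP10 (stromelysin-2) and MMP1 (interstitial collagenase) had the largest fold changes of the 9 members tested. MMP3 lies on chromosome 11 at 102706532 to 102714340 (GRCh37, minus strand). It was at 955, 932 and 902 CPM in pGIPZ-NC replicates 1, 2 and 3, and at 9052, 8917 and 8667 CPM in shUSP39 replicates 1, 2 and 3. The lowest shUSP39 library was far above the highest control library, and libraries of a group lay close together. The fitted log2 fold change was 3.23 (SE 0.03), a 9.39-fold difference. MMP3 took 0.0930% ± 0.00270 of the control libraries' counts and 0.888% ± 0.0195 of the shUSP39 libraries' (SD, n = 3). The difference in its mean, 7949 CPM, was the largest rise in CPM of any gene in the table, and its rank by count went from between 143 and 151 in the control libraries to 6 in every shUSP39 library.

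MMP10, the other stromelysin, cuts a range of matrix proteins and can activate precursor collagenases. Its gene lies at 102641233 to 102651359 of the same chromosome and strand. It was at 567, 555 and 540.0 CPM in the control libraries and at 1869, 1831 and 1811 CPM in the shUSP39 libraries. The groups did not overlap. The log2 fold change was 1.70 (SE 0.03), and the difference of 1283 CPM was the fourth largest rise in the table.

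MMP1 opens the helix of type I and type III collagen. At 102660132 to 102668891, it lies between MMP10 and MMP3. Its level was 113, 99.8 and 111 CPM in the control libraries and 422, 395 and 421 CPM in the shUSP39 libraries. All shUSP39 libraries stood above all control libraries, with a log2 fold change of 1.91 (SE 0.05). MMP13, the third collagenase, was nearly silent at the end of the same cluster. It had 11, 13 and 0 counts in pGIPZ-NC and 6, 11 and 9 in shUSP39. The groups overlapped, and the interval of its log2 fold change ran from -1.45 to 1.77, so a 2-fold change either way was within the error at this depth.

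The promoters that the sequence table holds for 2 members whose differences had opposite signs are printed, as the region from which each is transcribed. They are the 250 bases before the start site (RefSeq, GRCh38.p14), and 4 of the 10 members had an entry. MMP10 is at chr11:102780629-102780878 on the minus strand and TIMP1 at chrX:47582186-47582435 on the plus strand. Capitals mark letters that match TGANTCA (the AP-1 motif with 1 free base) or TATAAA (the TATA box) in MMP10, and TGAGTAA (a changed AP-1 motif) in TIMP1.
MMP10: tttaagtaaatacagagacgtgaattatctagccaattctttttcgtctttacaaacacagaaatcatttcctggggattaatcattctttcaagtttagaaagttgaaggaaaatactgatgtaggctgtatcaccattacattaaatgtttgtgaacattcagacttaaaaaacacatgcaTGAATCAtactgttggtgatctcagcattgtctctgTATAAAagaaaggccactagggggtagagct
TIMP1: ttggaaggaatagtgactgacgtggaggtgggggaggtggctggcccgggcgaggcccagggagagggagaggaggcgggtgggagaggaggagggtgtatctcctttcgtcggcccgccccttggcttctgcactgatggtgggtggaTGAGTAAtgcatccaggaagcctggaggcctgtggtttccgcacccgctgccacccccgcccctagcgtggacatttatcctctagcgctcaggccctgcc

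The MMP10 promoter had a GC content of 34.4% and held TGAATCA 67 bases and TATAAA 31 bases before the start. The TIMP1 promoter, at 64.8% GC, had TGAGTAA 101 bases before the start. The exact AP-1 letters TGAGTCA, searched on both strands, were in neither, nor in the promoters of MMP14 and TIMP3, and the shorter GAGTCA within them was also in none of the 4. Among all 35116 promoters of the table, each with the 50 bases after the start added, 4.95% held TGAGTCA, 13.9% GAGTCA, 7.71% TGANTCA, 2.57% TGAGTAA and, on the given strand, 7.33% TATAAA. These matches are letters only, and the searches for the last 3 motifs were added after the sequences had been seen.

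MMP10, MMP1 and MMP3 are neighbours on the long arm of chromosome 11, in a cluster of 9 MMP genes over 435.2 kb in which all genes run on the minus strand. The 3 genes span 73.1 kb. Beyond MMP3 come MMP12, the macrophage elastase, and MMP13. On the other side lie MMP8, which was not analysed here, then MMP27, MMP20 and MMP7. MMP12 was low, with 84, 87 and 92 counts in pGIPZ-NC and 175, 162 and 83 in shUSP39. Its groups overlapped because of shUSP39 replicate 3, and its log2 fold change was 0.67 (SE 0.24, adjusted p = 0.0297), under the 2-fold limit. Its adjusted p was 0.0942 without pGIPZ-NC replicate 1, 0.106 without pGIPZ-NC replicate 2, 0.155 without shUSP39 replicate 1 and 0.147 without shUSP39 replicate 2, and 0.0536 with limma-voom. MMP7 had at most 7 counts and MMP20 and MMP27 at most 3 in any library, and none of these 3 was tested. High levels within the cluster were thus seen in 3 adjacent genes.

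The window of 1000 kb on each side of the MMP10 to MMP3 span, chosen after the values had been seen, held 19 protein-coding genes, of which 10 were tested and 5 of these were not MMPs. BIRC3, an inhibitor of apoptosis protein that acts in NF-kappaB signalling, rose from 4.24 ± 1.27 to 15.4 ± 0.448 CPM (SD, n = 3), or 1.83 on the log2 scale (SE 0.16, adjusted p = 7.48e-10). It was called in all 17 settings tried. Its neighbour BIRC2, of the same family, had a log2 fold change of 0.92 (adjusted p = 7.08e-05) and CEP126, a centrosomal protein, 0.61 (adjusted p = 0.00407), both below 2-fold. TMEM123 had a log2 fold change of -0.15 (adjusted p = 0.00847) and YAP1, a coactivator of the Hippo pathway, 0.18 (adjusted p = 0.861).

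**Figure D2:**
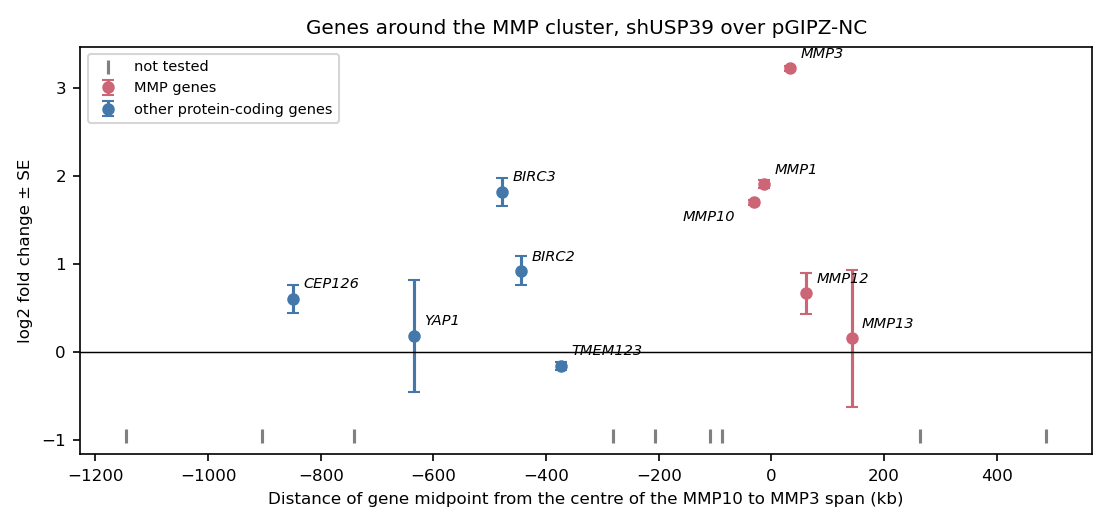
Log2 fold change ± SE (y axis) of genes around the MMP cluster against the distance of each gene's midpoint from the centre of the MMP10 to MMP3 span, in kb (x axis); red points are MMPs, blue points other protein-coding genes, and grey ticks genes that were not tested. MMP10, MMP1 and MMP3 at the centre lay at 1.70, 1.91 and 3.23, and BIRC3, at -478.6 kb, had 1.83.

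Reads per kb of transcript allow the 3 proteases to be set against each other. In pGIPZ-NC, MMP3 was at 510 ± 14.8, MMP10 at 315 ± 7.82 and MMP1 at 54.8 ± 3.60 CPM per kb (SD, n = 3). In shUSP39 they were at 4873 ± 107, 1044 ± 16.7 and 209 ± 7.69 CPM per kb. Their order was the same in both groups, but their proportions were not. The ratio of MMP3 to MMP10 was 1.62 ± 0.00679 in pGIPZ-NC and 4.67 ± 0.0420 in shUSP39, and that of MMP3 to MMP1 was 9.34 ± 0.681 and 23.3 ± 1.08. The ratio of MMP10 to MMP1 was 5.77 ± 0.411 and 4.99 ± 0.188, a much smaller shift between the groups.

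MMP2 and MMP14 form a pair in which MMP14, a membrane-type enzyme also called MT1-MMP, activates the precursor of MMP2, the gelatinase, at the cell surface with the help of TIMP2. MMP2 lies on chromosome 16 at 55423612 to 55540603 (GRCh37, plus strand). It was nearly absent, with 4, 5 and 4 counts in pGIPZ-NC and 1, 1 and 2 in shUSP39. The filter on low counts removed it, and no fold is given. MMP14, on chromosome 14 at 23305769 to 23318250 (plus strand), had 69, 42 and 90 counts in pGIPZ-NC and 146, 120 and 99 in shUSP39. By CPM its highest control library, at 3.18, lay just under its lowest shUSP39 library, at 3.37. Its log2 fold change was 0.84 (SE 0.27), with an interval from 0.30 to 1.39. With 1 library left out the log2 fold change ran from 0.56, without pGIPZ-NC replicate 2, to 1.18, without pGIPZ-NC replicate 3. It was 0.72 without shUSP39 replicate 1.

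TIMP1, a secreted inhibitor of most MMPs, was among the most abundant messengers of these cells. Its gene lies on chromosome X at 47441807 to 47446188 (plus strand). It was at 3551, 3655 and 3623 CPM in pGIPZ-NC and at 2037, 2097 and 2093 CPM in shUSP39. The groups were far apart and each was tight. The log2 fold change was -0.82 (SE 0.03), which makes the control level 1.77-fold the shUSP39 level, below the 2-fold limit. The difference in its mean, -1534 CPM, was the largest fall in CPM of any gene in the table, and its rank by count went from 14 to between 32 and 35.

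TIMP2 differed in the other direction. This inhibitor, on chromosome 17 at 76849059 to 76921469 (minus strand), is also the one that tethers the MMP2 precursor to MMP14. It was at 124, 119.6 and 128 CPM in pGIPZ-NC and at 149.7, 162 and 167 CPM in shUSP39. The groups did not overlap, and the log2 fold change was 0.34 (SE 0.05). TIMP3, an inhibitor held in the matrix that also blocks ADAM17 and ADAMTS enzymes, lies on chromosome 22 at 33197691 to 33259028 (plus strand). It had 17, 16 and 36 counts in pGIPZ-NC and 10, 20 and 28 in shUSP39. The groups overlapped, and the log2 fold change was -0.26 (SE 0.53, interval from -1.34 to 0.82). TIMP1 lies within SYN1, which was at 0.633 CPM in pGIPZ-NC and 0.501 in shUSP39. TIMP2 overlaps CEP295NL, which was at 0.0118 and 0.0853 CPM, and TIMP3 lies within SYN3, which was not analysed here. Whether the counting used strand is not given in the sources used here.

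ADAMTS1 cuts proteoglycans such as versican and aggrecan and is known for a part in ovulation. It lies on chromosome 21 at 28208074 to 28217728 (minus strand). It was at 263, 274 and 260.3 CPM in the control libraries and at 666, 707 and 692 CPM in the shUSP39 libraries. The lowest shUSP39 library was above every control library. The log2 fold change was 1.35 (SE 0.04), and the difference of 422 CPM was the 13th largest rise in the table.

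Across the members, 9 of 10 were tested. Of these, 4 were called, all higher in shUSP39 (MMP1, MMP3, MMP10 and ADAMTS1), where 4.53% of all genes tested were called higher. By the adjusted p alone 6 were higher and 1, TIMP1, was lower, where 16.1% of all genes tested were higher and 17.5% lower. MMP14 was no longer among the 6 without pGIPZ-NC replicate 2 or without shUSP39 replicate 1. The libraries of the groups did not overlap for 7 of the 9, beside 44.5% of all genes tested. The median log2 fold change was 0.84 over the 9 members and 0.01 over all genes tested. Since the members were chosen on this contrast, nothing is read from these counts. The 10 genes made up 0.559% ± 0.00378 of the counts of pGIPZ-NC libraries and 1.41% ± 0.0179 of those of shUSP39 libraries.

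On the scale of CPM per kb, TIMP1 was the highest of the 10 in pGIPZ-NC at 4694 ± 69.3, followed by MMP3, MMP10 and MMP1. MMP1 and ADAMTS1, at 51.2 ± 1.36, did not differ beyond their spread there. TIMP2 stood at 33.9 ± 1.10, MMP14 at 0.594 ± 0.258, TIMP3 at 0.166 ± 0.0963, MMP13 at 0.0904 ± 0.0789 and MMP2 at 0.0396 ± 0.00398. The spreads of neighbours among these last 3 overlapped. In shUSP39, MMP3 at 4873 CPM per kb stood above TIMP1 at 2699 ± 43.9, and MMP10 came next. ADAMTS1 at 133 ± 4.03 was then below MMP1 at 209 ± 7.69, and TIMP2 reached 43.8 ± 2.50. The low genes kept their order, with MMP14 at 1.07 ± 0.166 and TIMP3 and MMP13, at 0.140 ± 0.0694 and 0.105 ± 0.0329, within each other's spread.

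Summed per kb, MMP1, MMP3 and MMP10 were at 880.0 ± 23.1 CPM in pGIPZ-NC and at 6127 ± 122 CPM in shUSP39. The summed TIMPs were at 4728 ± 68.9 and 2743 ± 46.4 CPM per kb, and TIMP1 alone made 99.3% and 98.4% of these sums. The ratio of the 3 proteases to the 3 inhibitors was 0.194, 0.183 and 0.181 in the control libraries and 2.32, 2.21 and 2.17 in the shUSP39 libraries. The summed messages of these 3 TIMPs were thus in excess in every control library, and those of these 3 MMPs in every shUSP39 library. The 3 MMPs are those of the members that were called higher, so the rise of their sum followed from that choice. MMP3 alone made 58.0% of that sum in pGIPZ-NC and 79.5% in shUSP39. Protein, secretion and activation of the enzymes were not measured in these libraries.

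**Figure D3:**
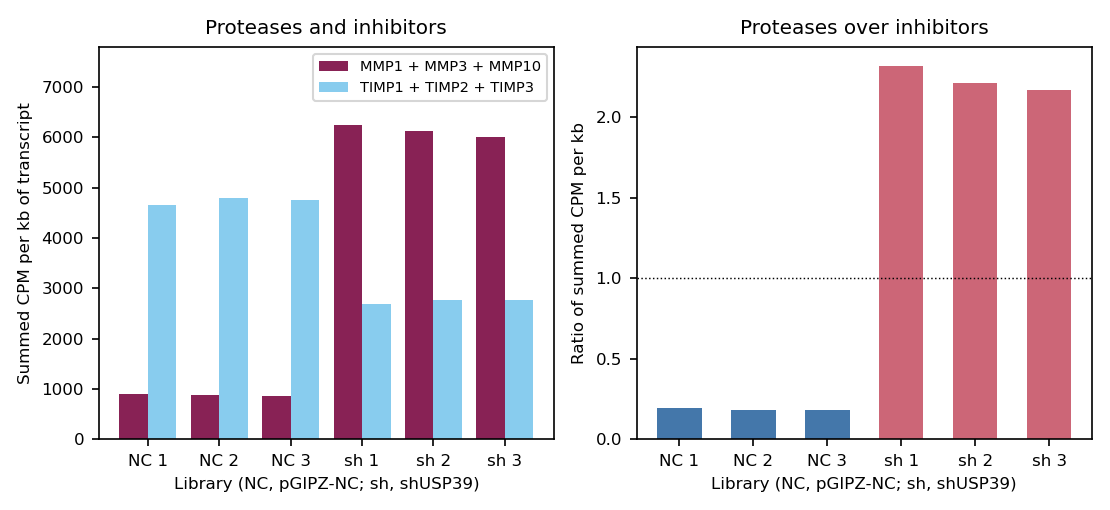
Left, summed CPM per kb of transcript (y axis) of MMP1, MMP3 and MMP10 (dark bars) and of TIMP1, TIMP2 and TIMP3 (light bars) in each of the 6 libraries (x axis); right, the ratio of both sums, with a dotted line at 1. The ratio was between 0.181 and 0.194 in the pGIPZ-NC libraries and between 2.17 and 2.32 in the shUSP39 libraries.

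The genes with a pattern most like MMP3 were found by Pearson's r of log2 CPM over the 6 libraries, among 9082 genes with a mean of at least 1 CPM. The nearest was MMP10 (r = 0.99991), followed by DLX5, FAHD1, ZNF217 and COL12A1 (r = 0.99977, 0.99967, 0.99961 and 0.99956). These 6 points fall into 2 groups of 3, so that any gene with tight libraries and a difference has a high r, and 142 genes were over 0.99. The sizes differed widely. COL12A1, a chain of a collagen that sits on fibril surfaces, went from 15.2 to 143 CPM, while FAHD1, a mitochondrial enzyme, went from 61.3 to 71.7 CPM. DLX5, a homeobox factor of the skeleton, had no count in pGIPZ-NC and 6.77 CPM in shUSP39, and ZNF217, a zinc finger factor, went from 429 to 746 CPM.

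The rest of the metalloproteinase families was then examined, as whole gene families, listed with earlier results of these data known. Of 18 other genes (17 MMPs and TIMP4), 16 were in the table and 7 were tested. MMP17, a membrane enzyme with a lipid anchor, rose from 4.66 ± 0.342 to 10.1 ± 1.42 CPM (log2 fold change 1.08, SE 0.15, adjusted p = 3.07e-06). Without shUSP39 replicate 2 its log2 fold change was 0.97, under the limit. MMP16, a membrane-type enzyme related to MMP14, fell from 10.9 ± 0.148 to 0.978 ± 0.396 CPM (log2 fold change -3.50, SE 0.22, adjusted p = 6.58e-13). Its counts were 345, 359 and 311 in pGIPZ-NC and 21, 43 and 25 in shUSP39. No shUSP39 library came near the control libraries. MMP15, at 162 ± 2.23 and 246 ± 7.34 CPM, had a log2 fold change of 0.57 (adjusted p = 1.42e-11), and MMP24 and MMP25 had 0.51 and 0.73, all under 2-fold. MMP11 had -0.09 (adjusted p = 0.777). The median of the 7 was 0.57. MMP9, the other gelatinase, had at most 3 counts in any library and counts in shUSP39 replicates 2 and 3 alone.

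Of 25 other ADAMTS and ADAMTS-like genes, 22 were in the table and 10 were tested. Of the 10, 4 were called, all higher, where 4.53% of all genes tested were called higher. ADAMTS15, a proteoglycan-cutting enzyme, rose from 20, 21 and 40 counts to 235, 200 and 218 (log2 fold change 3.00, SE 0.26, adjusted p = 4.65e-10). ADAMTS2, which removes the amino propeptide of fibrillar procollagens, rose from 41, 49 and 21 counts to 246, 242 and 201 (2.64, SE 0.23, adjusted p = 5.25e-10). In both genes the groups were far apart. THSD4, an ADAMTS-like protein of microfibrils, rose from 7.48 ± 1.34 to 22.5 ± 1.35 CPM (1.57, SE 0.12, adjusted p = 8.50e-11). ADAMTS3, a second procollagen peptidase, had 3, 8 and 13 counts in pGIPZ-NC and 20, 28 and 26 in shUSP39 (1.60, SE 0.59, adjusted p = 0.0383). That call rests on few counts, as its adjusted p was 0.171 without pGIPZ-NC replicate 1, 0.115 without pGIPZ-NC replicate 2, 0.120 without shUSP39 replicate 2 and 0.115 without shUSP39 replicate 3. ADAMTS5, the neighbour of ADAMTS1 on chromosome 21, had a log2 fold change of 0.25 (adjusted p = 0.0133) and ADAMTS7 of 0.37 (adjusted p = 0.0197). Of the 10, 7 had a positive log2 fold change and 3 a negative one. The 3 were ADAMTS13 (-0.76, adjusted p = 0.279), ADAMTS10 (-0.50, adjusted p = 0.365) and ADAMTSL5 (-0.02, adjusted p = 0.882). The median of the 10 was 0.47.

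The related ADAM family includes membrane-bound enzymes that shed ectodomains. Of 16 ADAM genes, 8 were tested and had a median log2 fold change of 0.20. ADAM23, a member without protease activity, rose from 1.42 ± 0.192 to 3.90 ± 0.847 CPM (1.42, SE 0.26, adjusted p = 7.51e-05). ADAM19, at 11.7 ± 0.887 and 23.8 ± 1.91 CPM, was just under the limit at 0.99 (SE 0.10, adjusted p = 1.73e-08). ADAM17, the sheddase that releases TNF and ligands of the EGF receptor, had -0.15 (SE 0.05, adjusted p = 0.0255), and ADAM10 had 0.20 (adjusted p = 0.197).

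**Figure D4:**
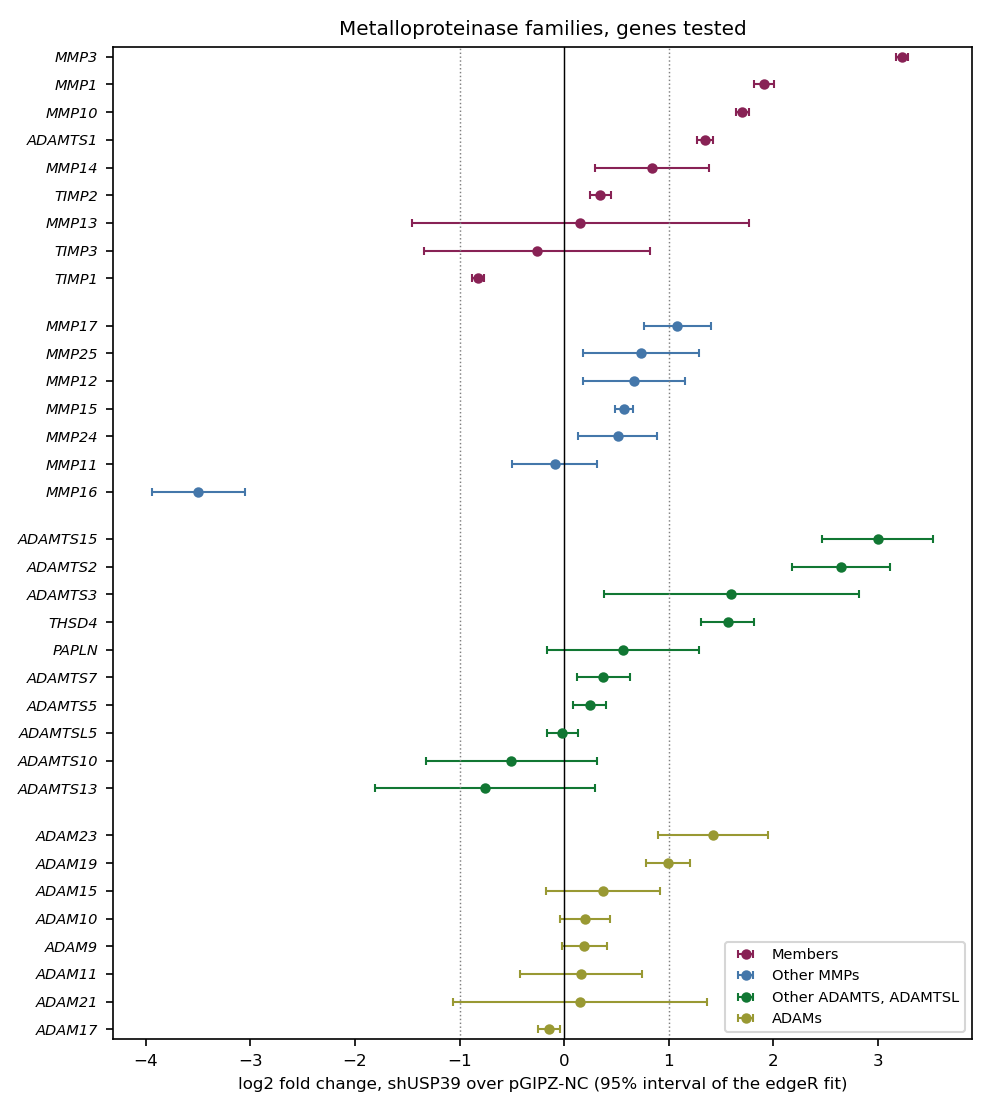
Log2 fold change of shUSP39 over pGIPZ-NC (x axis) with the 95% interval of the edgeR fit (whiskers) for the members and the other tested MMP, ADAMTS, ADAMTS-like and ADAM genes (y axis, by family); dotted lines mark 2-fold. MMP3 at 3.23 and ADAMTS15 at 3.00 lay farthest to the right and MMP16 at -3.50 farthest to the left.

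Genes that activate the proteases or restrain them in other ways were taken next. Of 14 genes of the plasminogen system and of precursor activation, 6 were tested. PLAU, the urokinase activator, was low at 2.91 ± 0.980 and 3.38 ± 0.669 CPM and had a log2 fold change of 0.20 (adjusted p = 0.594), and its receptor PLAUR had 0.24 (adjusted p = 0.721). FURIN, which cuts the propeptide of membrane-type MMPs, had -0.32 (SE 0.21, adjusted p = 0.267). Of 14 other inhibitors, inducers and receptors, 7 were tested and had a median of 0.00. LRP1, the receptor that clears MMPs and their inhibitor complexes, went from 185 ± 9.72 to 146 ± 5.42 CPM (log2 fold change -0.37, adjusted p = 3.81e-07), under 2-fold. BSG, the MMP inducer also named EMMPRIN, had 0.20 (adjusted p = 0.297), and RECK, a membrane inhibitor of MMPs, -0.27 (adjusted p = 0.751).

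Among matrix proteins that are not collagens and are known substrates of these enzymes, 6 of 15 were tested. Of these, 4 were called, all lower, where 2.28% of all genes tested were called lower. TNC was not called and went the other way, from 9, 21 and 5 counts to 23, 35 and 27 (log2 fold change 1.30, SE 0.53, adjusted p = 0.0621). FBLN1 had -0.07 (adjusted p = 0.302). The basement membrane linker NID2 fell from 30.1 ± 3.76 to 4.47 ± 0.367 CPM (log2 fold change -2.78, SE 0.12, adjusted p = 4.00e-16). LUM, a small proteoglycan of collagen fibrils, fell from 176, 170 and 97 counts to 16, 3 and 16 (-3.63, SE 0.36, adjusted p = 7.34e-09). DCN, another of that family, fell from 31, 22 and 49 counts to 0, 1 and 6 (-3.81, SE 0.74, adjusted p = 0.000191), and its log2 fold change was -5.81 without shUSP39 replicate 3. BCAN, a proteoglycan of brain matrix, went from 55, 40 and 30 counts to 2, 24 and 17 (-1.50, SE 0.53, adjusted p = 0.0286). Its adjusted p was 0.147 without pGIPZ-NC replicate 1, 0.0692 without pGIPZ-NC replicate 2 and 0.107 without shUSP39 replicate 1. The median of the 6 was -2.14, beside 0.01 for all genes tested. LUM and DCN are also on the list of fibroblast markers.

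Of 17 transcription factors known to act on MMP promoters, 11 were tested and 3 were called higher, where 4.53% of all genes tested were. The median log2 fold change of the 11 was 0.16. JUN, a subunit of AP-1, rose from 83.2 ± 5.80 to 258 ± 5.20 CPM (1.61, SE 0.05, adjusted p = 1.71e-19). FOSL2, a partner of JUN in AP-1, rose from 364 ± 6.95 to 747 ± 16.7 CPM (1.01, SE 0.03, adjusted p = 1.31e-18), on the edge of the limit, with 0.99 without pGIPZ-NC replicate 1 and 0.9986 without shUSP39 replicate 3. ETS2, an ETS factor, had 14, 20 and 13 counts in pGIPZ-NC and 52, 28 and 38 in shUSP39 (1.33, SE 0.44, adjusted p = 0.0195). Its adjusted p was 0.0627 without pGIPZ-NC replicate 1, 0.0550 without pGIPZ-NC replicate 3, 0.121 without shUSP39 replicate 1 and 0.0597 without shUSP39 replicate 3. FOS and FOSL1, other partners of JUN, had log2 fold changes of 0.05 (adjusted p = 0.720) and 0.29 (adjusted p = 0.0276). Of 13 cytokines and growth factors known to induce MMPs, 4 were tested and 0 were called, with a median log2 fold change of 0.11. LIF had 0.09 (adjusted p = 0.382), FGF2 0.12 (adjusted p = 0.0502) and HGF -0.12 (adjusted p = 0.646). HBEGF, a ligand of the EGF receptor, went from 25.4 ± 0.915 to 39.3 ± 0.535 CPM (log2 fold change 0.60, adjusted p = 4.52e-07), and the interleukins IL1A, IL1B and IL6 and TNF were too low to be tested.

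Some fibroblast markers and some ovarian carcinoma and epithelial markers differed between the groups. The 9 fibroblast markers summed to between 2535 and 2652 CPM in the pGIPZ-NC libraries and between 1255 and 1329 CPM in the shUSP39 libraries, and 7 had 1 CPM or more in a library. Most of the sum came from 2 collagen genes. COL1A2, a chain of type I collagen, fell from 1149 ± 37.4 to 462 ± 11.8 CPM (log2 fold change -1.34, SE 0.03, adjusted p = 2.79e-21), and COL3A1, at 1439.7 ± 28.3 and 819 ± 29.2 CPM, had -0.84. THY1, a surface glycoprotein of fibroblasts, had a higher level at 0.68 (adjusted p = 0.000475), while COL1A1 had -0.20 (adjusted p = 0.380) and PDGFRB 0.29 (adjusted p = 0.577). The fibroblast protease FAP and the receptor PDGFRA were too low to be tested. The epithelial markers in the table summed to between 47.1 and 49.0 CPM in pGIPZ-NC and between 34.8 and 41.4 CPM in shUSP39. KRT19 fell from 24.2 ± 2.11 to 1.98 ± 0.258 CPM (-3.64, SE 0.14, adjusted p = 3.51e-17) and KRT8 from 28, 37 and 26 counts to 3, 0 and 0 (-4.76, SE 0.82, adjusted p = 4.13e-05), while KRT18 had 0.56. MUC16, a mucin shed by ovarian carcinoma, had at most 6 counts in the control libraries and shUSP39 replicate 1, and 150 and 71 counts in shUSP39 replicates 2 and 3. The value for KRT8 was -7.91 without shUSP39 replicate 1. The immune markers summed to between 10.2 and 12.9 CPM in pGIPZ-NC and between 12.3 and 13.2 CPM in shUSP39, and PTPRC, which marks white blood cells, had at most 7 counts. The 3 immune markers tested, CD68, LYZ and FCER1G, had adjusted p-values of 0.825, 0.812 and 0.735. These are bulk libraries of a single cell line, and the names of the marker lists do not show which cells were present. In bulk RNA, fewer cells of a kind and less RNA per cell cannot be told apart. The part of these markers in the members' values was not tested.

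The members' values were also read without the libraries that stood apart. With shUSP39 replicate 1 alone against the control libraries, the log2 fold change was 3.26 for MMP3, 1.94 for MMP1, 1.73 for MMP10, 1.30 for ADAMTS1, -0.85 for TIMP1 and 0.25 for TIMP2. Beside them, the values from all 6 libraries were 3.23, 1.91, 1.70, 1.35, -0.82 and 0.34. MMP14 had 1.05 in that comparison.

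**Figure D5:**
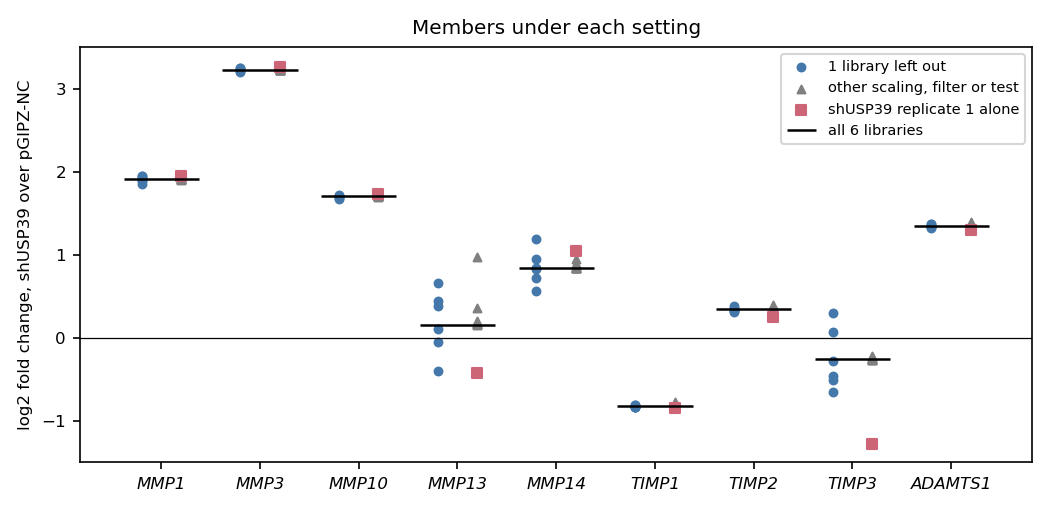
Log2 fold change (y axis) of the 9 tested members (x axis) with all 6 libraries (black line), with 1 library left out (blue points), under another scaling, filter or test (grey triangles) and with shUSP39 replicate 1 alone (red squares). MMP3 stayed between 3.20 and 3.28, whereas MMP13 lay between -0.42 and 0.97 and TIMP3 between -1.27 and 0.30.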

How the data were processed

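RNA-seq libraries of A2780 cells were grouped by their labels into pGIPZ-NC and shUSP39, with 3 libraries each. The authors deposited raw read counts per RefSeq transcript, 1 column per library. The submitters' processing notes name HISAT2, Cufflinks and hg19 without their role, and the counter, the annotation and the use of strand are not given in the sources used here. The authors' own columns of group means, fold changes and p-values were not used.

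Counts of 21368 transcripts were summed to 16571 gene symbols, and 46 of 47 symbols in the form of a date were replaced through the transcript. Each member had 1 transcript row. Groups were compared with edgeR 4.0.16, run in R 4.3.3 (filterByExpr, TMM scaling, robust quasi-likelihood fit, group as the only term, all 6 libraries), over 10695 genes. The biological coefficient of variation was 7.59%. The same fit was also run on counts simulated for those 10695 genes, with the common dispersion that the real counts had given. Of 200 genes changed in the simulation, 98.5% were called, with 0 false calls. Differences in dispersion between genes were not simulated. CPM used the summed counts, and lengths and positions were those of the main transcript and gene in GENCODE release 44 mapped to GRCh37. Promoters came from a RefSeq table of GRCh38.p14. No RefSeq proteins were used here, so a planned protein motif search was left out.

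The members and gene lists were chosen with earlier results of these data known. The genes named are the 10 members, the whole MMP cluster, every called gene of the other lists (at most 6 a list) and the 5 genes most like MMP3. Others were chosen after their values were seen, and 1 item of the lists is not reported here. The replicates come from a single line, so p-values measure the spread between these cultures. Alternatives were DESeq2 1.42.0 size factors and Wald test, upper-quartile scaling, library size only, other filters, limma 3.58.1 (voom), a replicate block, each library left out, shUSP39 replicate 1 alone, and the highest transcript row.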

Additional observations from a re-analysis of the deposited data

How the results depend on the processing

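A filter of 10 counts in each library left 471 called genes of 9556 tested, instead of 728 of 10695. Why the count fell was not tested. The count was between 677 and 836 with 1 library left out, 940 with no filter and 597 with shUSP39 replicate 1 alone. Over the 17 settings the log2 fold change ran from 1.86 to 1.96 for MMP1 and from 3.20 to 3.28 for MMP3. It ran from 1.67 to 1.75 for MMP10, from 1.30 to 1.39 for ADAMTS1 and from 0.56 to 1.18 for MMP14. All settings reuse the same libraries, and the members were chosen on this contrast, so these ranges are a description only. Of the genes of the other family and pathway lists, between 11 and 20 were called, beside 15 in the fit described. Of 458 single-gene values under the alternatives, 430 kept their direction and stayed called or not called as in the fit described. Another 21 lost the call, 2 gained it and 5 changed sign. Values of genes under 2-fold that crossed only the adjusted p limit, as for MMP12 and MMP14, are among the 430. The changes of sign were in MMP13 and TIMP3. MMP13 ran from -0.40 to 0.66 with 1 library left out and was -0.42 with shUSP39 replicate 1 alone, and TIMP3 ran from -0.66 to 0.30 with 1 library left out. Both had at most 36 counts per library, and the cause was not tested. With shUSP39 replicate 1 alone, where that library is assumed to vary like the others, MMP17 (0.90) and FOSL2 (0.97) were under the 2-fold limit and ADAM23 (adjusted p = 0.0614), ADAMTS3 (adjusted p = 0.460) and ETS2 (adjusted p = 0.0503) lost the call. ADAMTS3 also lost it with no filter (adjusted p = 0.0524) and ETS2 by its highest transcript row (adjusted p = 0.0646).

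The replicate numbers of the groups are not said to mark a shared day or batch. Deviations of same-numbered libraries from their group means correlated at 0.06, 0.01 and 0.02 over genes, so the numbers were taken as names only. With the replicate block, 745 genes, 4 members and 16 genes of the other lists were called. Depth limits MMP2, MMP13, TIMP3 and ADAMTS3, for which counting error alone is large.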
